A study of Danio rerio with 12 samples.

Results

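Embryos of the moonshine line (mon) were followed from 22 to 30 hours post fertilization (hpf), with libraries chosen by their labelled genotype and stage. The 6 mon libraries were 3 of 30 hpf, from clutches 3, 4 and 9, and 3 of 22 hpf, from clutches 9, 11 and 13. They made up 6 of the 12 libraries of the series, and the other 6 were siblings of the same clutches and stages, labelled wild-type/het. In this line trim33 is mutated, which encodes the chromatin-associated factor TIF1γ, and homozygous embryos lack red blood cells. Parents were heterozygous for mon and 1 parent of each pair carried the drl:EGFP reporter, so every embryo could inherit at most 1 copy of it. Mutants were picked from about 21 hpf by their weak green fluorescence, so the genotype groups rest on phenotype. RNA of 30 pooled whole embryos of 1 clutch went into each library, and a clutch was the offspring of 1 mating. No allele name is given in the labels, no treatment was applied, and the embryos were raised at 28.5°C.

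A zebrafish embryo of 22 hpf is near the end of forming its segments, and by 30 hpf its muscle, heart, eye, pigment and nervous system are differentiating. Wild-type embryos of this age load their first red blood cells with globin and heme while the heart begins to drive them around. A fish embryo takes its oxygen through the skin at this age, so that development can go on in embryos without red cells. The comparison of 30 with 22 hpf within mon asks what a bloodless embryo still switches on and off over this time.

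Levels are CPM, the library's reads scaled to a common total, with no correction for gene length. They are compared between libraries within a gene or within the same sum of genes. Sums and their largest members describe reads, not numbers of RNA molecules. Changes are log2 fold changes of 30 over 22 hpf with their SE, worked back from the test. A gene was called, and is said to have risen or fallen, at an adjusted p under 0.05 in edgeR's quasi-likelihood test with Benjamini-Hochberg adjustment over all 21778 genes tested. The mon libraries held 18233320 to 23135676 counts. Markers of skeletal muscle, neurons, vessels, hatching gland, epidermis and the yolk syncytial layer (22 IDs) had reads in every mon library. In the other marker lists 3 IDs lacked reads in some mon libraries: hbae1.1 in 1, lyz in 1, and TNNT2 (ENSDARG00000100694) in all 3 of 30 hpf. The 8 erythroid marker IDs summed to between 11.1 and 13.9 CPM in the mon libraries of 30 hpf and between 8.04 and 11.0 CPM in those of 22 hpf. Their sums in siblings were at least 1540.0 CPM at 30 hpf and at least 237 CPM at 22 hpf. Most of the mon sum at 30 hpf was the SLC4A1 copy ENSDARG00000024560, which also stands in the ionocyte list. It held 9.01, 6.15 and 7.14 CPM in mon at 30 hpf and 2.57, 2.45 and 2.58 CPM at 22 hpf, against 9.63 to 11.3 CPM in siblings at 30 hpf. The other SLC4A1 copy (ENSDARG00000012881) held 0.246, 0.455 and 0.488 CPM in mon at 30 hpf and 190 to 206 CPM in siblings. The mutated gene trim33 (ENSDARG00000016181) stood at 72.8, 72.8 and 71.7 CPM in mon at 30 hpf, against 50.7, 57.6 and 67.7 CPM at 22 hpf. All mon libraries lay below the sibling libraries of their stage for trim33 (75.5 to 78.0 CPM at 30 hpf and 84.2 to 89.4 CPM at 22 hpf). Its log2 change in mon was 0.30 ± 0.08 (edgeR, adjusted p = 0.00592), a call lost without clutch 9 (log2 0.24, edgeR, adjusted p = 0.0591).

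Over these 8 hours 9202 of the 21778 genes were called in mon (42.3%), 4804 higher (22.1%) and 4398 lower (20.2%) at 30 hpf. With a change of at least 2-fold the balance tipped towards rises, with 2678 genes higher (12.3%) and 833 lower (3.82%). The median log2 change over all genes tested was -0.01. These shares are the background for every list below, since a list with about 1 in 5 members called in each direction moved as often as all genes tested. Clutches 3 and 4 were sampled at 30 hpf only and clutches 11 and 13 at 22 hpf only, so stage and clutch cannot be told apart outside clutch 9. In whole embryos, more cells of a type and more RNA per cell cannot be told apart either.

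**Figure D1:**
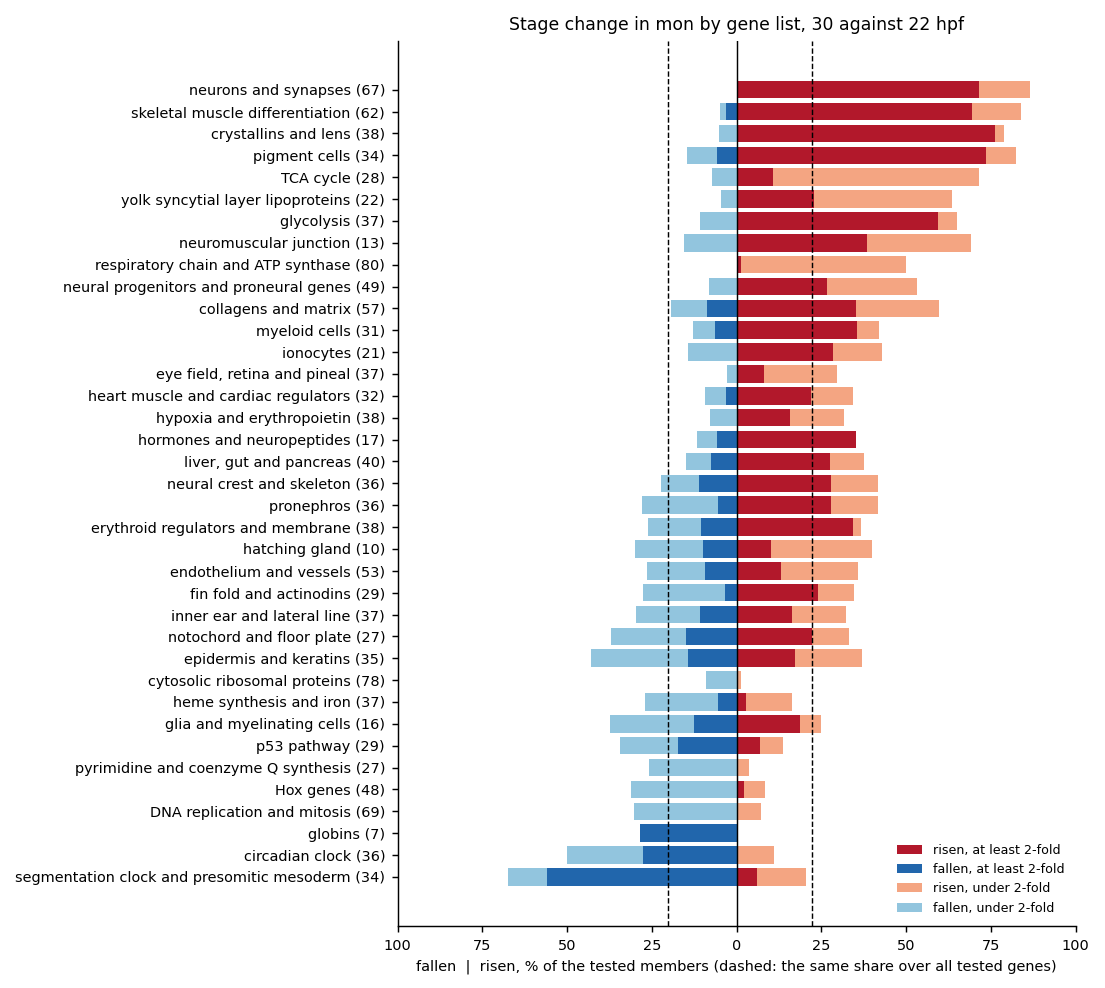
Share of the tested members of each gene list that rose (right) or fell (left) in mon at 30 against 22 hpf, in % of the number tested (in brackets); dark bars are changes of at least 2-fold and dashed lines the shares over all tested genes, 22.1% and 20.2%. Lists for neurons, muscle, lens and pigment extend furthest to the right and the list for segmentation furthest to the left.

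Genes of the program that cuts the body axis into segments fell. Segments form from the presomitic mesoderm at the tail, where T-box factors keep cells unsegmented and oscillating genes of the her family set the rhythm. Of 34 tested genes of this list (36 members), 23 fell and 7 rose, and 19 of the falls were at least 2-fold, with a median log2 change of -1.90. Its members her7 and ripply2 were also among the 3 genes of the whole table that met the level rule for being switched off, given further on.

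The T-box factor tbx6 (ENSDARG00000011785) stood at 2.56, 2.00 and 2.17 CPM in mon at 30 hpf, against 82.9, 86.4 and 90 CPM at 22 hpf. Its log2 change was -5.27 ± 0.11 (edgeR, adjusted p = 2.06e-15), and no library of 30 hpf came near one of 22 hpf. For msgn1 (ENSDARG00000070546), a factor that drives cells out of the tail's stem zone, the levels were 1.77, 0.82 and 1.33 CPM at 30 hpf and 32.8, 31.3 and 28.1 CPM at 22 hpf. The clock gene her1 (ENSDARG00000014722) held 0.64, 1.14 and 0.443 CPM at 30 hpf and 16.1, 16.8 and 17.8 CPM at 22 hpf. Its partner her7 (ENSDARG00000017917) held 0.0493, 0.0911 and 0.355 CPM at 30 hpf and 3.05, 4.54 and 4.62 CPM at 22 hpf. These 3 genes fell by 4.56 ± 0.21, 4.50 ± 0.30 and 4.54 ± 0.52 on the log2 scale, and the stages did not overlap for any of them. The T-box gene tbx16 fell by 4.41 ± 0.17, and in clutch 9 its log2 ratio was -4.09. Among genes of the list chosen after their values were seen, ripply2, which ends the segmentation program in each new segment, fell by 3.55 ± 0.53. The tail bud factor cdx4 fell by 3.61 ± 0.19 and the adhesion gene pcdh8 by 3.62 ± 0.23.

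Not every gene of the list followed. The notochord factor tbxta, which also marks the tail bud, fell by 0.57 ± 0.11, much less than its relatives. The Notch modifier lfng and the growth factor gene gdf11, both used in tissues outside the tail as well, rose by 0.45 ± 0.07 and 1.08 ± 0.13. Other genes of largest fall in the whole table were of other kinds. CYP11A1 (ENSDARG00000002347), the gene of the enzyme that starts steroid synthesis, stood at 1.28, 0.41 and 0.887 CPM at 30 hpf, against 21.2, 37.0 and 43.5 CPM at 22 hpf. Its log2 change was -5.31 ± 0.42 (edgeR, adjusted p = 3.21e-06). The Nodal antagonist dand5 of the left-right organizer fell by 4.75 ± 0.75. The immune-responsive gene irg1l held 0.985, 1.41 and 0.798 CPM at 30 hpf and 27.5, 32.8 and 8.86 CPM at 22 hpf, where clutch 13 was the lowest, and fell by 4.43 ± 0.83. Its call was lost without clutch 9 (log2 -4.09, edgeR, adjusted p = 0.0959) and with limma-voom (log2 -4.28, adjusted p = 0.0706).

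**Figure D2:**
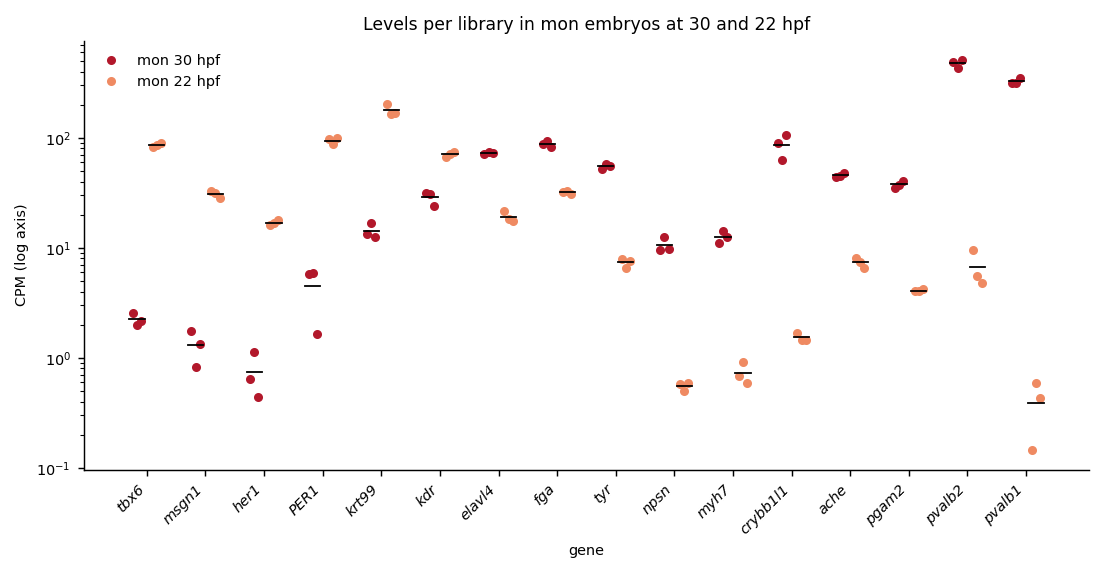
CPM on a log axis of 16 genes in the 3 mon libraries of 30 hpf (dark red) and the 3 of 22 hpf (orange), with a black line at each group's mean. The stages do not overlap for any gene shown: tbx6, msgn1, her1, PER1, krt99 and kdr are lower at 30 hpf and the other genes are higher, pvalb1 the most.

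Skeletal muscle genes rose in the mutants. Of 62 tested genes for muscle differentiation (65 members) 52 rose and 3 fell, 43 of the rises were at least 2-fold, and the median log2 change was 2.39. Summed over the list, the mon libraries of 30 hpf held 81100.0, 78100.0 and 79400.0 CPM, against 20600.0, 18200.0 and 18400.0 CPM at 22 hpf. Among them was pvalb1 (ENSDARG00000037789), a parvalbumin that takes up calcium and lets fast muscle relax. It stood at 318, 315 and 349 CPM at 30 hpf, against 0.145, 0.59 and 0.43 CPM at 22 hpf (log2 9.69 ± 0.17, edgeR, adjusted p = 3.44e-14). Its relative pvalb4 (ENSDARG00000024433) held 21.5, 31.3 and 28.7 CPM at 30 hpf, while at 22 hpf only clutch 11 had reads (0.0908 CPM). XIRP2 (ENSDARG00000091090), an actin-binding protein of muscle attachment sites, held 102, 95.1 and 102 CPM at 30 hpf and 0, 0.227 and 0.215 CPM at 22 hpf. These 3 genes were near absent at 22 hpf in each clutch and high in each clutch of 30 hpf.

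The contractile apparatus followed the same course from a higher start. The troponin gene TNNT3 (ENSDARG00000068457) stood at 357, 344 and 396 CPM at 30 hpf, against 11.3, 11.0 and 12.3 CPM at 22 hpf, a log2 rise of 4.99 ± 0.07 (edgeR, adjusted p = 1.02e-17). The fast myosin gene myhz2, chosen after its values were seen, rose by 5.2 ± 0.25, and ckma, the creatine kinase of muscle, by 3.78 ± 0.17. The Z-disc genes ldb3b and actn3b rose by 3.51 ± 0.09 and 2.1 ± 0.05, and the skeletal actin gene ACTA1 (ENSDARG00000055618) by 2.26 ± 0.06. Genes that commit cells to muscle moved little or the other way. The factor myf5, which acts first, fell by 1.67 ± 0.15, myod1 fell by 0.36 ± 0.08, and myog rose by 0.17 ± 0.05, a call lost without clutch 9 (log2 0.16, edgeR, adjusted p = 0.0747). These 3 were also chosen after their values were seen.

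At the neuromuscular junction, where motor axons meet muscle, 9 of 13 tested genes rose and 2 fell (median log2 0.73). The acetylcholinesterase gene ache (ENSDARG00000031796), whose product clears the transmitter, held 43.6, 45.1 and 47.8 CPM at 30 hpf and 8.09, 7.40 and 6.60 CPM at 22 hpf. It rose by 2.62 ± 0.10 (edgeR, adjusted p = 3.22e-12). The receptor subunit of mature junctions, chrne, rose by 2.31 ± 0.12, while chrng, the subunit of the fetal receptor in mammals, fell by 0.56 ± 0.13. In the heart list, 11 of 32 tested genes rose (34.4%, against 22.1% of all genes), with a median of 0.27. Another 3 fell (9.38%, against 20.2%) and 18 were not called, structural genes and regulators alike. Rises included the heart's myosin heavy chain genes and SMYD1 (ENSDARG00000009280), the latter by 3.43 ± 0.17. The other SMYD1 copy (ENSDARG00000091253) rose by 0.62 ± 0.09, and the tissue of these SMYD1 rises was not tested. The ventricular gene myh7 (ENSDARG00000079782) held 11.1, 14.2 and 12.6 CPM at 30 hpf and 0.678, 0.908 and 0.591 CPM at 22 hpf, and rose by 4.1 ± 0.29 (edgeR, adjusted p = 5.09e-09). The atrial gene myh6 rose by 2.69 ± 0.13. The hyaluronan synthase gene has2, needed for the jelly of the early heart, fell by 2.58 ± 0.16.

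Of 37 tested glycolysis genes, 24 rose, 22 of them at least 2-fold, and 4 fell (median log2 1.44). The phosphofructokinase gene PFKM (ENSDARG00000060797) stood at 26.3, 29.8 and 26.2 CPM at 30 hpf, against 0.387, 0.454 and 0.591 CPM at 22 hpf, a log2 rise of 5.84 ± 0.20 (edgeR, adjusted p = 4.85e-13). The muscle phosphoglycerate mutase pgam2 rose by 3.2 ± 0.12 and the enolase gene ENO1 (ENSDARG00000022456) by 2.38 ± 0.09. Of 80 respiratory chain and ATP synthase genes 40 rose and none fell, but 1 of them by at least 2-fold, and the median was 0.28. The ATP synthase gene atp5f1b (ENSDARG00000070083) held 740, 762 and 745 CPM at 30 hpf and 573, 542 and 548 CPM at 22 hpf, a log2 rise of 0.43 ± 0.04 (edgeR, adjusted p = 4.92e-07). In the TCA cycle 20 of 28 genes rose and 2 fell (median 0.38), among them the malate dehydrogenase gene mdh2 at 1.02 ± 0.07. Several of the glycolysis genes belong to muscle, whose list rose with them, and the part of muscle in this rise was not tested. In pyrimidine and coenzyme Q synthesis 7 of 27 genes fell (25.9%, close to the 20.2% of all genes), 1 rose and 19 were not called (median -0.13). Among the falls were umps at -0.78 ± 0.07, CTPS1 (ENSDARG00000030700) at -0.70 ± 0.08 and cad at -0.41 ± 0.04, all genes of pyrimidine synthesis.

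Most collagen and matrix genes rose. Of 57 tested collagen and matrix genes 34 rose and 11 fell (median log2 0.55). The collagen gene COL1A1 (ENSDARG00000035809) held 1310.0, 1090.0 and 1160.0 CPM at 30 hpf and 165, 149 and 156 CPM at 22 hpf, and rose by 2.92 ± 0.08 (edgeR, adjusted p = 3.22e-13). Its partner chain col1a2 rose by 2.13 ± 0.06 and POSTN (ENSDARG00000104267), the periostin gene, by 1.73 ± 0.07. FMOD (ENSDARG00000010294), a proteoglycan that binds collagen, had no read in mon at 22 hpf and 1.82, 2.69 and 3.86 CPM at 30 hpf. With a floor of 3 counts over the 3 libraries it was at least 57.0-fold higher. In the fin fold, which actinodin fibres stiffen, and1 (ENSDARG00000088514) stood at 18.8, 22.7 and 26.7 CPM at 30 hpf, against 0.872, 1.04 and 1.02 CPM at 22 hpf. It rose by 4.53 ± 0.19 (edgeR, adjusted p = 9.74e-12) and and2 by 6.22 ± 0.40. The list as a whole was mixed, with 10 of 29 higher and 8 lower. The skin list was mixed too, with 13 of 35 tested genes higher and 15 lower (median -0.09). The keratin gene krt99 (ENSDARG00000019365) held 13.4, 16.9 and 12.5 CPM at 30 hpf and 202, 164 and 169 CPM at 22 hpf, and fell by 3.64 ± 0.11 (edgeR, adjusted p = 7.23e-13). The keratin krt1-19e, chosen after its values were seen, rose by 4.47 ± 0.34. So keratin genes moved in both directions.

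Most pigment genes rose. Of 34 tested genes 28 rose, 25 at least 2-fold, and 5 fell (median log2 2.3). Tyrosinase, the enzyme that starts melanin synthesis, is encoded by tyr (ENSDARG00000039077), which stood at 52.5, 58.1 and 55.1 CPM at 30 hpf, against 7.99, 6.58 and 7.62 CPM at 22 hpf. It rose by 2.90 ± 0.16 (edgeR, adjusted p = 1.98e-09). The related melanin genes TYRP1 (ENSDARG00000029204) and slc24a5 rose by 3.65 ± 0.21 and 2.52 ± 0.16. The yellow pigment cell gene gch2, which makes pteridines, and xdh, both chosen after their values were seen, rose by 3.60 ± 0.24 and 5.14 ± 0.46. The crest stem factor foxd3 fell by 1.14 ± 0.11 and sox10 fell by 0.42 ± 0.10. The gene sox10 was chosen after its values were seen and was not called without clutch 9 (log2 -0.35, edgeR, adjusted p = 0.0517). Among skeletal crest genes 15 of 36 rose and 8 fell, with barx1, a factor of jaw and pharynx cartilage, at 6.4, 5.74 and 6.25 CPM at 30 hpf, against 0.823, 0.182 and 0.43 CPM at 22 hpf (log2 3.67 ± 0.37).

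The lens list had the highest median of the 37 lists, 4.87 on the log2 scale. Of 38 tested genes (crystallins, which fill the lens fibres, and fibre cell genes) 30 rose, 29 at least 2-fold, and 2 fell. The beta crystallin gene crybb1l1 (ENSDARG00000007576) held 89.5, 62.4 and 105 CPM at 30 hpf and 1.69, 1.45 and 1.45 CPM at 22 hpf, and rose by 5.80 ± 0.20 (edgeR, adjusted p = 9.09e-11). Of the gamma M crystallins, crygm2d8 stood at 4.68, 1.64 and 5.01 CPM and crygm2d13 at 2.91, 1.37 and 3.99 CPM at 30 hpf. No read of either was counted in mon at 22 hpf, so they were at least 77.2-fold and 56.3-fold higher. For crygm2d20, crygm2d12 and crygm2d3, also without a read at 22 hpf, the bounds were 30.3-fold, 27.4-fold and 24.1-fold. Clutch 4 was the lowest of the 3 libraries of 30 hpf for each of these 5 crystallins and for crybb1l1. The gamma M crystallins are near-identical copies and the counting could split their reads, so single copies are uncertain. Away from the lens, the eye and pineal list changed less, with 11 of 37 genes higher and 1 lower (median 0.42), such as RPE65 (ENSDARG00000094752) of the visual cycle at 0.59 ± 0.08.

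Genes of neurons rose in the bloodless embryos. Of 67 tested neuronal and synaptic genes 58 rose, 48 at least 2-fold, and none fell (median log2 1.55). The RNA-binding protein gene elavl4 (ENSDARG00000045639) of young neurons held 70.6, 75.0 and 72.4 CPM at 30 hpf and 21.5, 18.1 and 17.7 CPM at 22 hpf, and rose by 1.93 ± 0.08 (edgeR, adjusted p = 9.08e-12). Synaptic adhesion genes rose with it, NRXN3 (ENSDARG00000043746) by 2.48 ± 0.11 and nrxn1a by 2.00 ± 0.10. Another 2 genes, chosen after their values were seen, had little or no signal at 22 hpf. The gene of dopamine synthesis, th, stood at 1.43, 1.00 and 1.15 CPM at 30 hpf, against 0.145, 0.136 and 0.107 CPM at 22 hpf, and the neurofilament gene NEFL (ENSDARG00000012426) rose by 3.64 ± 0.66. Of 49 progenitor and proneural genes 26 rose and 4 fell (median 0.34), among them SLC1A2 (ENSDARG00000102453) and INSM1 (ENSDARG00000091756) at 2.00 ± 0.11 and 1.28 ± 0.07. Among the 16 glial genes 4 rose and 6 fell. SLC1A2 stands in this list too, and the factor gene pou3f1 rose by 1.1 ± 0.08. EGR2 (ENSDARG00000042826), a factor of hindbrain segments and later of myelin, fell by 2.64 ± 0.22 and the myelin gene mpz, chosen after its values were seen, by 1.12 ± 0.14.

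In the pronephros, the embryo's kidney, 15 of 36 genes rose and 10 fell (median log2 0.25). The uptake receptor cubn (ENSDARG00000087013) rose by 2.19 ± 0.13, while the early factor IRX3 (ENSDARG00000031138) fell by 0.87 ± 0.09 and slc12a1, a salt carrier chosen after its values were seen, by 1.07 ± 0.13. In the ear and lateral line list 12 of 37 rose and 11 fell: the hair cell factor ATOH1 (ENSDARG00000055294) rose by 1.38 ± 0.15 and the otolith gene oc90 fell by 0.95 ± 0.09. In the notochord list 9 of 27 rose and 10 fell, with the matrix gene epyc up by 3.93 ± 0.21 and LAMB1 (ENSDARG00000101209) down by 1.12 ± 0.06. The fibrinogen genes fga, fgb and fgg of liver and yolk rose by 1.46 ± 0.08, 1.43 ± 0.12 and 1.56 ± 0.13 within a list of 15 rises and 6 falls among 40 genes. The yolk syncytial layer, which feeds the embryo with lipoproteins, had 14 of 22 genes higher and 1 lower (median 0.57), among them apoc2 at 1.24 ± 0.07 and rbp4 at 1.72 ± 0.11. Ionocyte genes, which handle salt in the skin, rose in 9 of 21 cases with 3 falls, among them ATP1B1 (ENSDARG00000076833) at 2.45 ± 0.13. In the hatching gland list 4 of 10 rose and 3 fell, with agr2 up by 1.98 ± 0.14 and tmprss4a down by 1.33 ± 0.13. Of 17 hormone genes 6 rose and 2 fell, among them the pituitary hormone prl, at 1.53, 1.37 and 1.29 CPM at 30 hpf against 0, 0.136 and 0.161 CPM at 22 hpf (log2 3.75 ± 0.59).

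Vessel genes moved in both directions. Of 53 tested genes 19 rose and 14 fell, with a median log2 change of 0.10, and 1 of the falls was tbx16, which is no vessel gene. The VEGF receptor gene kdr (ENSDARG00000017321) held 31.7, 31.1 and 23.8 CPM at 30 hpf and 66.4, 71.2 and 74.0 CPM at 22 hpf, and fell by 1.29 ± 0.10 (edgeR, adjusted p = 2.77e-08). The factors that start the vessel lineage, etsrp and npas4l, fell by 1.27 ± 0.21 and 1.70 ± 0.25, both chosen after their values were seen. Scavenger receptor genes of veins rose, stab1 by 1.81 ± 0.10 and stab2 by 1.55 ± 0.10, and so did the later endothelial genes pecam1a and plvapb, by 2.48 ± 0.24 and 2.06 ± 0.20. These last 2 were again chosen after their values were seen.

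Of 31 tested myeloid genes 13 rose, 11 at least 2-fold, 4 fell and 14 were not called (median log2 0.60). The granule protein gene npsn (ENSDARG00000010423) stood at 9.56, 12.6 and 9.80 CPM at 30 hpf, against 0.581, 0.499 and 0.591 CPM at 22 hpf, and rose by 4.25 ± 0.28 (edgeR, adjusted p = 2.15e-09). The leukocyte actin regulator coro1a held 6.06, 7.97 and 7.18 CPM at 30 hpf and 0.436, 0.772 and 1.13 CPM at 22 hpf. The proteoglycan gene srgn of granules held 3.50, 5.60 and 2.66 CPM at 30 hpf and 0, 0.0454 and 0.161 CPM at 22 hpf. They rose by 3.19 ± 0.29 and 5.78 ± 0.57. The macrophage receptor gene csf1ra, which pigment cells also use, rose by 2.77 ± 0.23. The early myeloid factor SPI1 (ENSDARG00000000767) stood at 3.1, 2.5 and 2.04 CPM at 30 hpf and 2.81, 3.50 and 2.58 CPM at 22 hpf, with overlapping stages (log2 -0.22 ± 0.24, edgeR, adjusted p = 0.494). In the opposite direction, the collagenase gene mmp13a had no read in mon at 30 hpf and 0.968, 0.999 and 0.483 CPM at 22 hpf, at least 17.7-fold lower (chosen after its values were seen). Summed over the list, the stages overlapped, at 592, 492 and 571 CPM at 30 hpf and 555, 538 and 536 CPM at 22 hpf. The largest member of this sum was apoc1, also in the yolk syncytial layer list, at 279 to 349 CPM at 30 hpf and 228 to 309 CPM at 22 hpf. The 7 myeloid marker IDs alone summed to 33.4 to 41.5 CPM in mon at 30 hpf and 15.0 to 17.1 CPM at 22 hpf. Of these, lcp1 was the largest, at 19.4 to 26.5 CPM and 10.7 to 12.3 CPM.

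Globin levels in mon were low at both stages and lower at 30 hpf. The 9 globin IDs matched summed to 2.32, 1.91 and 2.26 CPM in mon at 30 hpf, against 6.59, 4.31 and 6.17 CPM at 22 hpf, so all libraries of 30 hpf lay below those of 22 hpf. In siblings the same sum was 1530.0, 1430.0 and 1470.0 CPM at 30 hpf and 230.0, 206 and 203 CPM at 22 hpf. These sums leave out HBE1 (ENSDARG00000087390), which the names did not match to the list. It held 0.222 to 0.956 CPM in mon and 394 to 423 CPM in siblings at 30 hpf. Of the 7 tested globins of the list 2 fell in mon and none rose (median log2 -0.91). The alpha-like embryonic globin hbae3 (ENSDARG00000079305) held 1.48, 1.18 and 1.06 CPM at 30 hpf and 4.50, 2.54 and 5.26 CPM at 22 hpf (log2 -1.71 ± 0.28, edgeR, adjusted p = 0.000711). For hbae1.2, at 0.197, 0.0911 and 0 CPM at 30 hpf and 0.436, 0.454 and 0.322 CPM at 22 hpf, the change was -2.07 ± 0.56, and its call was lost without clutch 9 (log2 -1.41, edgeR, adjusted p = 0.0717). The beta-like globin hbbe3 (ENSDARG00000038147) held 0.296, 0.592 and 0.621 CPM at 30 hpf and 1.36, 0.953 and 0.537 CPM at 22 hpf, with overlapping stages (log2 -0.91 ± 0.40, edgeR, adjusted p = 0.0924). It was called without mon 22 hpf clutch 13 (log2 -1.17, edgeR, adjusted p = 0.0231), without sibling 30 hpf clutch 3 (log2 -0.91, adjusted p = 0.0302), with clutch as a block (log2 -0.98, adjusted p = 0.0163) and by DESeq2 (adjusted p = 0.0181). Near-identical globin copies can share reads, so values of single copies are uncertain.

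The erythroid regulators gata1a and klf1 were not called, at under 1 CPM in every mon library. The level of gata1a (ENSDARG00000013477) was 0.64, 0.455 and 0.133 CPM in mon at 30 hpf and 0.533, 0.363 and 0.161 CPM at 22 hpf, and klf1 (ENSDARG00000017400) stood at 0.246, 0.273 and 0.222 CPM against 0.0484, 0.499 and 0.107 CPM. Both overlapped between the stages, with log2 changes of 0.17 ± 0.48 and 0.12 ± 0.61 (edgeR, adjusted p = 0.806 and 0.895). Factors that act before them fell, with lmo2 down by 2.03 ± 0.19 and tal1 by 1.61 ± 0.19, both chosen after their values were seen. The reporter's own gene, drl (ENSDARG00000078004), held 0.64, 1.32 and 0.798 CPM at 30 hpf and 1.60, 1.95 and 1.56 CPM at 22 hpf, and fell by 0.88 ± 0.27 (edgeR, adjusted p = 0.0141). The call of drl was lost with clutch as a block (log2 -0.73, edgeR, adjusted p = 0.078), with limma-voom (adjusted p = 0.0516), in a fit of the 6 mon libraries alone (adjusted p = 0.0779) and when clutch 9 was left out (log2 -0.81, adjusted p = 0.102). It was also lost in edgeR without any 1 of 3 libraries, namely mon 22 hpf clutch 11 (log2 -0.77, adjusted p = 0.0597), mon 30 hpf clutch 3 (-0.69, 0.0696) and mon 30 hpf clutch 9 (-0.78, 0.0576).

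In the erythroid list 14 of the 38 tested genes rose in mon (36.8%, against 22.1% of all genes). Another 10 fell (26.3%, against 20.2%), with a median log2 change of 0.22. In siblings 21 rose and 8 fell (median 1.15). The ammonia channel gene rhag (ENSDARG00000019253) stood at 46.4, 44.5 and 49.3 CPM at 30 hpf, against 5.18, 4.13 and 3.76 CPM at 22 hpf. It rose by 3.42 ± 0.13 (edgeR, adjusted p = 3.02e-12), and the tissue of its rise was not tested. Catalase (cat), which breaks down peroxide in many tissues, rose by 2.65 ± 0.18 and bcl11ab, a factor of neurons and blood, by 2.37 ± 0.12. The nucleotidase gene nt5c2l1 (ENSDARG00000034852) moved the other way, to 6.60, 7.19 and 6.52 CPM at 30 hpf, against 29.2, 29.3 and 25.6 CPM at 22 hpf (log2 -2.05 ± 0.12, edgeR, adjusted p = 5.73e-10). Of 37 heme and iron genes 10 fell and 6 rose (median -0.21). The first enzyme gene of erythroid heme synthesis, alas2 (ENSDARG00000038643), held 1.97, 2.00 and 1.24 CPM at 30 hpf and 1.79, 1.09 and 0.752 CPM at 22 hpf (log2 0.50 ± 0.30, edgeR, adjusted p = 0.207). It went down in clutch 9 (log2 ratio -0.40), and it was called higher without clutch 9 (log2 1.11, edgeR, adjusted p = 0.0016) and without its mon library of 22 hpf alone (log2 0.90, adjusted p = 0.0311). The heme exporter gene flvcr1 fell by 1.59 ± 0.17 and glrx5, of iron-sulfur cluster assembly, by 0.69 ± 0.08, while the transferrin receptor tfr1a rose by 1.45 ± 0.12. Of 38 hypoxia and erythropoietin genes 12 rose and 3 fell with a median of 0.02, with EPAS1 (ENSDARG00000057671), a hypoxia-inducible factor, up by 1.54 ± 0.17 and PDK2 (ENSDARG00000020876) by 1.47 ± 0.16.

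Of 36 tested members of the circadian list 18 fell, 10 at least 2-fold, 4 rose and 14 were not called (median log2 -0.61). The period gene PER1 (ENSDARG00000012499) held 5.81, 5.96 and 1.64 CPM in mon at 30 hpf and 96.5, 86.9 and 99.6 CPM at 22 hpf, and fell by 4.41 ± 0.34 (edgeR, adjusted p = 7.91e-06). Clutch 9 was the lowest library at 30 hpf. The genes per3, per2 and CRY1 (ENSDARG00000045768) fell by 2.21 ± 0.12, 2.16 ± 0.13 and 2.06 ± 0.09. The sources used here do not give the hour and light of each collection, so stage and hour of the day cannot be told apart.

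Genes of growth changed by small amounts. Of 69 replication and mitosis genes 21 fell and 5 rose, none by 2-fold (median log2 -0.10). The helicase gene MCM6 (ENSDARG00000057683) held 253, 250.0 and 253 CPM at 30 hpf and 338, 337 and 332 CPM at 22 hpf, and fell by 0.41 ± 0.04 (edgeR, adjusted p = 7.34e-07). The licensing factor cdt1 fell by 0.52 ± 0.07, while mki67 (Ki-67, made in cycling cells, chosen after its values were seen) rose by 0.30 ± 0.07, a call lost with clutch as a block (log2 0.09, edgeR, adjusted p = 0.101). Without clutch 9, 16 genes of the list were called in place of 26, 12 lower and 4 higher. In the p53 list 10 of 29 fell and 4 rose. Without clutch 9 the counts were 6 and 3. Falls included the cell death gene bmf2 (log2 -2.22 ± 0.31) and the DNA repair gene ddb2 (log2 -2.02 ± 0.18). In siblings their changes were -0.94 ± 0.34 and -2.08 ± 0.18. Neither difference was called in a test that did not pair mon and siblings by clutch. At 22 hpf bmf2 stood at 3.54 to 4.19 CPM in mon and 0.764 to 1.29 CPM in siblings. Of 48 Hox genes, which pattern the body axis, 15 fell and 4 rose (median -0.21). HOXB13 (ENSDARG00000056015), of the tail end, went against them, at 2.81, 2.09 and 2.88 CPM at 30 hpf and 0.0968, 0.318 and 0.268 CPM at 22 hpf (log2 3.47 ± 0.42). Of the 78 ribosomal protein genes 1 was higher and 7 lower, with a median of -0.04. With clutch as a block 20 were lower and 1 higher, and 4 were called in all without clutch 9, without its mon library of 22 hpf or without that of 30 hpf. In edgeR without mon 22 hpf clutch 13 or mon 30 hpf clutch 4, with the 6 mon libraries alone and with DESeq2, 5 were called.

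By a stricter rule of levels 81 genes were switched on and 3 off. A gene counted as on with at least 1 CPM in each mon library of 30 hpf, a mean under 0.2 CPM over those of 22 hpf, and a call, and as off in the reverse case. Of the 81, 64 have a descriptive symbol and 8 are crystallins. Besides pvalb4, XIRP2, FMOD and crygm2d8, they include and2, srgn, prl, th, NEFL and the hypoxia factor gene hif1aa, at 1.63, 2.73 and 1.77 CPM at 30 hpf, against 0.194, 0.0454 and 0.161 CPM at 22 hpf. All 81 were also called higher at 30 hpf in siblings, and the 3 that went off were called lower there. The level rule itself makes each of these genes move the same way in the mon libraries of clutch 9. Their direction in clutch 9 is therefore no separate check. The count depends on where the line is drawn: with on at 2 CPM it was 35 and 2, and with off at a mean under 0.1 CPM it was 29 and 0.

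Clutch 9 was the only clutch collected at both stages, so the stages can be compared within it. In a fit on the other clutches alone 7268 genes were called in mon, and 7054 of them (97.1%) moved the same way between the 2 mon libraries of clutch 9. Of 3247 genes called at least 2-fold, 3167 (97.5%) did so. Over all 21992 genes tested in that fit 79.2% had the same direction. The gene alas2 was among the exceptions. Clutch 9 has 1 mon library per stage, so its ratios carry no error of their own.

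**Figure D3:**
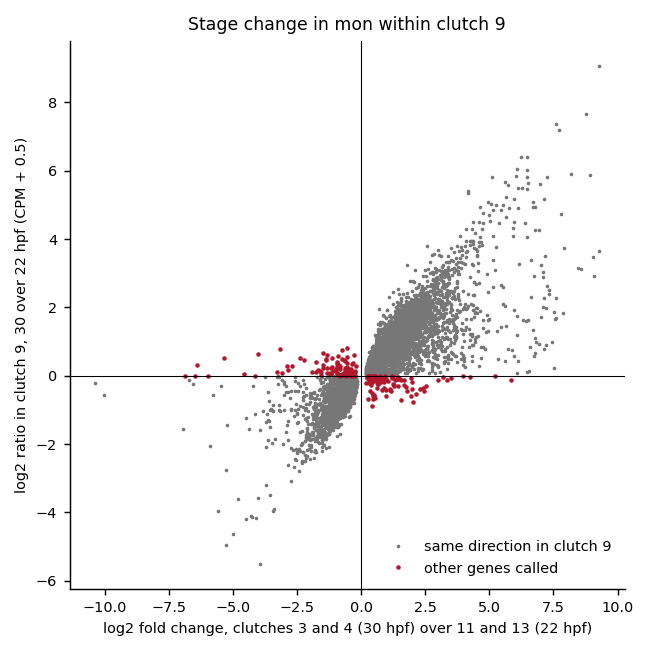
Log2 ratio of the mon libraries of clutch 9, 30 over 22 hpf (vertical), against the log2 fold change of the fit without clutch 9 (horizontal), for the 7268 genes called in that fit. Grey points, 97.1% of the genes, have the same direction in both; the others are red.

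**Figure D4:**
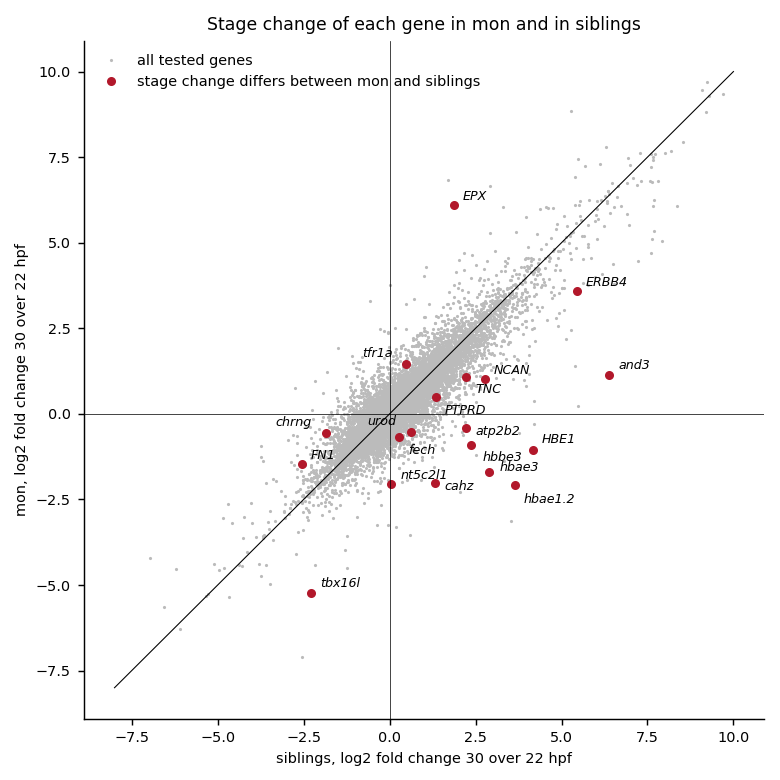
Log2 fold change of 30 over 22 hpf in mon (vertical) against siblings (horizontal) for the 21778 genes tested (grey), with the line of equal change. The 19 genes whose change differed between mon and siblings are red, and 15 of them lie below the line.

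The same stages were compared in siblings. In siblings 9391 genes were called over the same hours (43.1%), 4873 higher (22.4%) and 4518 lower (20.7%). A total of 7761 genes were called in both in the same direction, 84.3% of the mon calls and 82.6% of the sibling calls. A call in one genotype alone is no sign of a difference, which was tested as such. The stage change differed for 19 of 21778 genes (0.0872%), 4 with a higher change in mon (0.0184%) and 15 with a lower one (0.0689%). This test did not use the pairing of mon and siblings by clutch. Differences given as called or not called are those of this test unless another fit is named. A difference not called in it is no sign of an equal change. With clutch as a block, which keeps the pairing, the count was 105, 48 higher and 57 lower, with all 19 among them. Without clutch 9 it was 9, all among the 19. With limma-voom 14 of the 19 were kept and no other gene was called. Medians in mon and siblings stood at 2.39 and 2.3 for muscle, 1.55 and 1.71 for neurons, 2.3 and 2.5 for pigment and -1.90 and -2.15 for segmentation. They stood at -0.91 in mon and 2.88 in siblings for globins, 0.22 and 1.15 for the erythroid list and 0.02 and 0.33 for hypoxia. Gaps like that of hypoxia were seen in other lists, such as 0.63 and 0.99 for hormones and 0.60 and 0.30 for myeloid genes. Differences between medians were not tested, and no gene of the hypoxia list had a called difference in the test without pairing.

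Of these 19 genes 9 are globins or stand in the lists for erythroid genes or for heme and iron. The lists were chosen with earlier results of these data known, so this share is no independent evidence. For hbae3, hbae1.2, hbbe3 and HBE1 (ENSDARG00000087390) the mon change minus the sibling change was -4.59 ± 0.31, -5.71 ± 0.57, -3.29 ± 0.43 and -5.23 ± 0.57. Without clutch 9 the calls of hbae3 and hbbe3 were lost (edgeR, adjusted p = 0.109 and 0.791), and that of hbbe3 also with limma-voom (adjusted p = 1.0). The heme enzyme genes urod and fech rose in siblings and fell in mon. The decarboxylase gene urod (ENSDARG00000006818) stood at 15.4, 14.4 and 16.5 CPM in mon at 30 hpf and 20.8, 22.8 and 23.4 CPM in mon at 22 hpf. In siblings it held 87.8, 97.3 and 96.5 CPM at 30 hpf and 63.8, 62.2 and 58.3 CPM at 22 hpf, a difference of -1.14 ± 0.11 (edgeR, adjusted p = 8.47e-05). For fech, which inserts the iron, the difference was -0.97 ± 0.16 (edgeR, adjusted p = 0.0161, and 0.638 without clutch 9), and for the red cell carbonic anhydrase gene cahz it was -3.34 ± 0.35 (edgeR, adjusted p = 0.00473). In all, 8 genes were called in opposite directions in mon and siblings. Besides fech, urod, cahz, hbae3 and hbae1.2 these were fosl2, MEGF6 (ENSDARG00000079199) and ARHGAP45 (ENSDARG00000062049), for which the difference itself was not called. Their mon calls were lost without any 1 of 3, 2 and 11 of the 12 libraries, with adjusted p-values in edgeR of 0.0661 to 0.116, 0.114 to 0.126 and 0.0533 to 0.163. With clutch as a block all 3 were lost (edgeR, adjusted p = 0.222, 0.31 and 0.278), and MEGF6 and ARHGAP45 also in the 6 mon libraries alone (0.0593 and 0.0846) and with limma-voom (0.05 and 0.0661).

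For EPX and tfr1a the change was higher in mon, which stood lower than siblings at 22 hpf. The peroxidase gene EPX (ENSDARG00000019521) was not among the IDs matched to the myeloid list. Lists were matched by name only and the myeloid marker name mpx matched no ID, so this does not place EPX outside myeloid cells. EPX held 10.5, 16.2 and 11.5 CPM in mon at 30 hpf and 0.0968, 0.227 and 0.215 CPM in mon at 22 hpf. Siblings held 14.6, 22.6 and 18.2 CPM at 30 hpf and 6.21, 3.23 and 5.85 CPM at 22 hpf, a difference of 4.25 ± 0.50 (edgeR, adjusted p = 0.0011). This call was lost with limma-voom (adjusted p = 0.335) and without clutch 9 (log2 3.85, edgeR, adjusted p = 0.208). At 30 hpf the ranges of mon and siblings overlapped for this gene. For tfr1a the difference was 0.98 ± 0.14 (edgeR, adjusted p = 0.00672), a call lost in the same settings (adjusted p = 0.139 and 0.066), with mon at 8.38 to 10.3 CPM and siblings at 98.7 to 106 CPM at 30 hpf. In the other direction nt5c2l1 fell in mon and not in siblings, where it held 29.0, 22.8 and 29.3 CPM at 30 hpf and 26.6, 27.8 and 23.8 CPM at 22 hpf (difference -2.1 ± 0.16, edgeR, adjusted p = 8.9e-06).

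The other genes of the 19 are not globins and are not in the erythroid or heme and iron lists. In whole embryos the tissue of their change was not tested. The T-box gene tbx16l (ENSDARG00000006939) fell to 0.493, 0.728 and 0.443 CPM in mon at 30 hpf, while siblings of 30 hpf still held 3.29, 5.41 and 4.69 CPM. At 22 hpf mon had 22.9, 20.9 and 19.4 CPM and siblings 23.1, 23.3 and 18.6 CPM, so their ranges overlapped at that stage (difference -2.95 ± 0.29, edgeR, adjusted p = 9.25e-05). In the test without pairing by clutch no other gene of the segmentation list had a called difference. The gene tbx6 fell by 5.27 in both genotypes. The actinodin gene and3 (ENSDARG00000056873) stood at 0.69, 0.592 and 0.887 CPM in mon at 30 hpf, against 0.145, 0.454 and 0.376 CPM at 22 hpf, while siblings held 6.85, 7.12 and 4.43 CPM at 30 hpf and 0, 0.0498 and 0.154 CPM at 22 hpf. Its difference was -5.25 ± 0.80 (edgeR, adjusted p = 0.00783), and the call was lost with limma-voom (adjusted p = 0.104). In mon alone the stages of and3 did not overlap, and its log2 change of 1.14 was not called (edgeR, adjusted p = 0.0652) but was with the clutch block (log2 2.32, edgeR, adjusted p = 0.0149) and by DESeq2 (adjusted p = 0.0481). The related genes and1 and and2 rose in both genotypes, and neither difference in change was called in the test without pairing. At 30 hpf mon lay below siblings for both, at 18.8 to 26.7 against 71.1 to 88.7 CPM for and1. For and2 the levels were 5.59 to 7.24 against 20.9 to 32.1 CPM. The junction gene chrng stood at 19.7 to 20.2 CPM in mon and 6.02 to 8.81 CPM in siblings at 30 hpf, and the fibronectin gene FN1 (ENSDARG00000006526) at 192 to 222 CPM in mon and 84.4 to 96.9 CPM in siblings. Both fell in each genotype but by less in mon, with differences of 1.29 ± 0.20 and 1.08 ± 0.11. The call of chrng was lost without clutch 9 (edgeR, adjusted p = 0.0985).

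In 5 adhesion, signalling and pump genes the mon libraries lay above the sibling libraries at 22 hpf. The proteoglycan gene NCAN (ENSDARG00000005783) stood at 39.0, 42.0 and 45.9 CPM in mon at 30 hpf and 21.5, 18.9 and 22.3 CPM in mon at 22 hpf. In siblings it held 45.8, 41.8 and 47.1 CPM at 30 hpf and 6.52, 5.77 and 7.39 CPM at 22 hpf, a difference of -1.76 ± 0.15 (edgeR, adjusted p = 2e-05). The neuregulin receptor gene ERBB4 (ENSDARG00000090408), the calcium pump gene atp2b2, the matrix gene TNC (ENSDARG00000078362) and the phosphatase gene PTPRD (ENSDARG00000104937) had differences of -1.88 ± 0.33, -2.64 ± 0.39, -1.14 ± 0.18 and -0.87 ± 0.13. Without clutch 9 these 4 calls were lost (edgeR, adjusted p = 0.693, 0.364, 0.0675 and 0.24), and that of ERBB4 also with limma-voom (adjusted p = 0.779). For PTPRD mon was still above siblings at 30 hpf (53.4 to 60.5 against 36.4 to 39.2 CPM), and for TNC it was below (35.9 to 40.8 against 49.0 to 54.2 CPM).

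**Figure D5:**
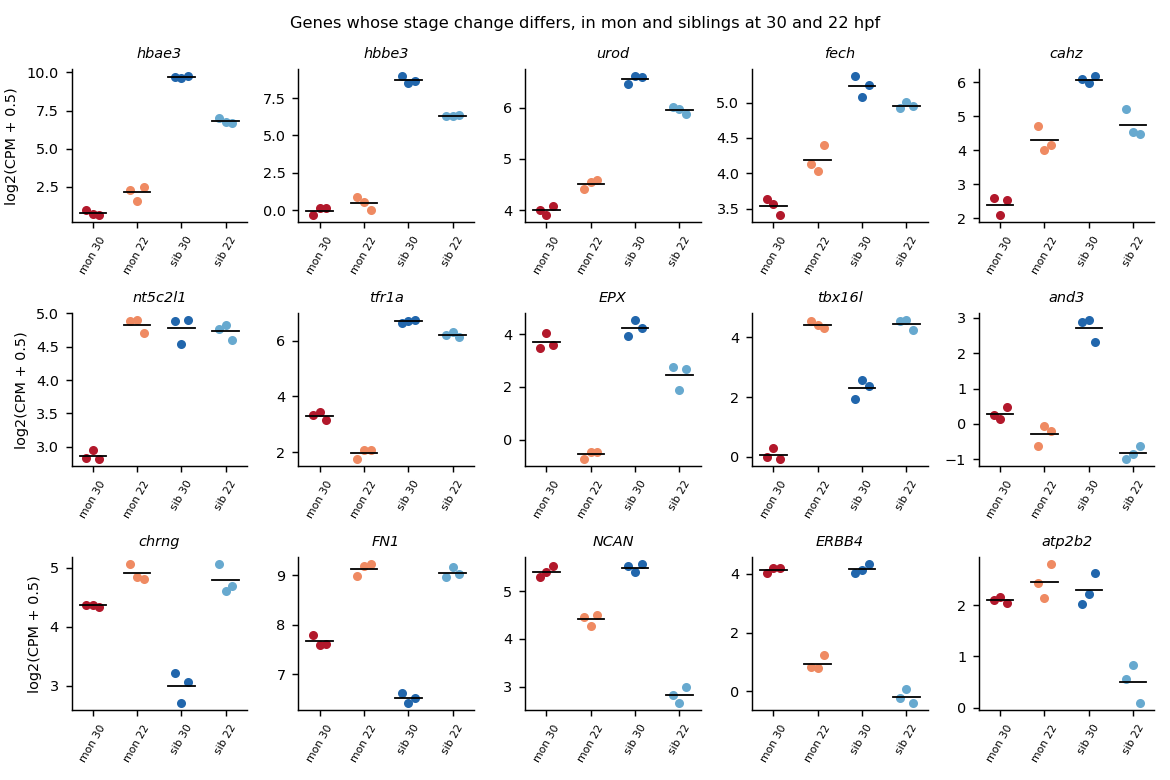
Log2(CPM + 0.5) in the 3 libraries of mon at 30 and 22 hpf (red, orange) and of siblings at 30 and 22 hpf (dark and light blue), with a line at each mean, for 15 of the 19 genes whose stage change differed. Globins, urod and fech lie lower in mon at both stages, tbx16l and nt5c2l1 at 30 hpf, and NCAN and atp2b2 lie higher in mon at 22 hpf.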

How the data were processed

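The 12 libraries were directional, rRNA-depleted total RNA-seq with ERCC spike-ins, per the labels' protocols. The authors deposited 1 table of raw counts for 32520 Ensembl gene IDs. The submitters' processing notes name the build GRCz11 and, with no order, HTSeq, TopHat2 2.0.11, cutadapt, FastQC and Cufflinks 2.2.1. The sources used here do not give the strand setting or annotation release, so reads of overlapping and antisense genes may not be told apart. Libraries of a group differed beyond sampling noise (chi-square per gene 6.46 to 10), so none was counted as a repeat.

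Counts of 21778 genes passing filterByExpr were fitted with edgeR 4.0.16 (R 4.3.3) by the quasi-likelihood F test, robust, with TMM factors (0.967 to 1.042), 4 groups, all 12 libraries and 8 residual degrees of freedom. P-values were adjusted by Benjamini-Hochberg over all of them. Contrasts were 30 minus 22 hpf in mon, in siblings, and their difference. SE is the log2 change over the root of F and is approximate. The ratios of clutch 9 are of log2(CPM + 0.5). A group with no read was set to 3 counts over the group, and such bounds cover counting error only. A clutch is 1 mating, so replicates are separate clutches. Within a stage, mon and siblings of 1 clutch deviated together from their group means (correlation 0.501 to 0.675 over 11125 genes), and the labels give the shared clutch, so clutch pairs them. The script was tested on simulated data.

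Symbols were matched for 29201 IDs (89.8%), by name only. Those in capitals are orthologue symbols that several copies can share, and are given with their ID. The 37 lists matched 1407 IDs, and 53 names found none, among them mpx and some globins. The naming patterns for ribosomal genes, dotted names and descriptive symbols were adjusted after the files were seen. Members and lists were chosen with earlier results of these data known. Named by rule were the 10 largest rises and falls (mean of at least 1 CPM, same direction in clutch 9, descriptive symbol), the 5 smallest p-values per direction of the difference, up to 4 members of smallest p in each list, and 8 fixed genes. Genes outside it, given as chosen after their values were seen, include the other difference genes and those of the level rule. Alternatives were DESeq2 1.42.0, limma-voom (limma 3.58.1), other size factors, no filter, a clutch block, the mon libraries alone, other level limits, and leaving out each library or clutch 9.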

Additional observations from a re-analysis of the deposited data

Results flagged for a closer look

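By a test of the difference itself, without pairing by clutch, the stage change differed between mon and siblings in 19 genes. The values here are the log2 change of mon minus that of siblings. In globins and genes of the erythroid, heme and iron lists they were -5.71 for hbae1.2, -4.59 for hbae3, -5.23 for HBE1 (ENSDARG00000087390), -3.29 for hbbe3, -3.34 for cahz, -1.14 for urod, -0.97 for fech, -2.10 for nt5c2l1 and 0.98 for tfr1a. In other genes they were 4.25 for EPX (ENSDARG00000019521), -2.95 for tbx16l, -5.25 for and3, 1.29 for chrng and 1.08 for FN1 (ENSDARG00000006526). They were -1.76 for NCAN (ENSDARG00000005783), -1.88 for ERBB4 (ENSDARG00000090408), -2.64 for atp2b2, -1.14 for TNC (ENSDARG00000078362) and -0.87 for PTPRD (ENSDARG00000104937).

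Several of these calls depended on single libraries. Leaving out 1 library ended the call of ERBB4 for 8 of the 12 libraries (edgeR, adjusted p 0.0666 to 0.197), of TNC for 7 (0.0567 to 0.0731), of hbbe3 for 7 (0.0519 to 0.107) and of fech for 6 (0.0554 to 0.083). The calls of and3 and HBE1 were lost without mon 22 hpf clutch 11 (edgeR, adjusted p = 0.0734 and 0.0577).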

How the results depend on the processing

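The count of 9202 genes called in mon ran from 7268 without clutch 9 to 9302 with DESeq2 (8036 to 9298 with 1 library left out), and that of at least 2-fold changes from 3247 to 3665. With clutch as a replicate block 9025 were called, 7613 of them shared in the same direction. Mon of 30 and 22 hpf share clutch 9 only, so under the block the stage effect rests on it. The 19 genes whose change differed became 33 with DESeq2, 105 with the block and 9 without clutch 9, and 16 to 21 with 1 library left out. All 19 were kept under DESeq2 and the block, and 14 with limma-voom, which lost EPX, tfr1a, hbbe3, ERBB4 and and3. The 84 genes switched on or off became 37 with on at 2 CPM and 29 with off at a mean under 0.1 CPM. They stayed 84 in the other settings, where levels were read from all 6 mon libraries.

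Of 249 named results 217 kept their direction and side of the threshold in all settings, and 32 of 37 lists stayed within 1.5 times their count. Among genes not called, directions turned in gata1a (log2 -0.21 under the block, -0.28 to 0.60 with 1 library left out, -0.28 without mon 30 hpf clutch 3 and -0.14 without mon 22 hpf clutch 13) and klf1 (-0.09 under the block, -0.25 without clutch 9, -0.34 to 1.61 with 1 library left out, negative without mon 22 hpf clutch 9 or 13, at -0.34 and -0.18). The mon reads of hbae5 were all in mon 30 hpf clutch 3, and its log2 change of 4.04 was 0.0 without that library. It was called with DESeq2 (adjusted p = 0.0317) and in edgeR without mon 30 hpf clutch 4 or 9 (log2 4.60 and 4.61, adjusted p = 0.0301 and 0.0295). The cause was not tested. Without clutch 9, 18 results lost their call. Among differences these included EPX (log2 3.85, edgeR, adjusted p = 0.208), tfr1a (0.97, 0.066), chrng (1.26, 0.0985) and hbae3 (-4.48, 0.109). Depth limits genes under about 1 CPM, globins and erythroid regulators in mon among them, where a library holds few reads.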
